A study of Mus musculus with 6 samples.

Results

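Hepatocytes next to the central vein of the liver lobule express a set of genes that depends on Wnt signalling, and 10 of them were followed here through acetaminophen (APAP) injury with and without pretreatment by costunolide (COS, a plant sesquiterpene lactone). The 10 were taken by name from the 55401 genes of the deposited table, and each was found there. They are *Glul*, *Oat*, *Slc1a2*, *Slc13a3* and *Rhbg*, the enzymes and transporters of this zone, and *Lgr5*, *Axin2*, *Rnf43*, *Znrf3* and *Tbx3*. Of the latter 5, all but *Tbx3* are genes of the Wnt pathway itself. *Tbx3* encodes a transcription factor and is a target of the pathway, and the 5 are grouped below as pathway genes. RNA came from liver of C57BL/6 mice in 6 libraries. The 2 COS+APAP libraries (replicates 2 and 3) were from mice given 20 mg/kg COS 12 h and again 40 min before an injection of 400 mg/kg APAP into the peritoneum. The 2 APAP libraries (replicates 1 and 3) were from mice given this dose without COS, and the time from APAP to collection was 6 h. The 2 control libraries (replicates 1 and 3) were labelled control, with no agent named. Sex, age, vehicle, hour of collection and feeding state are not in the sources used here. Nothing there ties each library to an animal of its own, so p-values measure only the spread between these libraries.

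A pair of doubts about the labels bears on each result. The protocol text gives the COS pretreatment to samples 5 and 6, while in the order of deposition these positions hold the libraries titled and labelled as the APAP model. If that text were right and the labels were not, the APAP and COS+APAP groups would be exchanged and the differences between them would run the other way. COS+APAP titles also begin their number with a 2 and the other titles with a 1, so what goes with that number and the effect of COS cannot be told apart.

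As background, Wnt proteins bind Frizzled and LRP receptors and stabilise beta-catenin, which enters the nucleus and activates target genes together with TCF and LEF factors. In the adult liver, endothelial cells of the central vein release Wnt ligands and the R-spondin that amplifies them, and beta-catenin is active in the hepatocytes nearest to that vein. The same hepatocytes carry the P450 enzymes that convert APAP to its reactive metabolite, and they are the first to die after an overdose.

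The letters just upstream of the starts of 4 of these genes are shown, because these genes were low together in APAP libraries and high together in the other libraries. RefSeq (GRCm38.p6) gave such windows for 6 of the 10 genes. *Rhbg*, *Lgr5*, *Tbx3* and *Znrf3* had none. Each window below holds 250 bases before the RefSeq start, 5′ to 3′ on the strand of the gene, at chr1:153899679-153899928 (plus strand) for *Glul*, chr7:132576399-132576648 (minus) for *Oat*, chr2:102706188-102706437 (plus) for *Slc1a2* and chr2:165473198-165473447 (minus) for *Slc13a3*. Capitals mark CTTTGAT or its reverse complement ATCAAAG, letters that TCF and LEF factors recognise.
Glul: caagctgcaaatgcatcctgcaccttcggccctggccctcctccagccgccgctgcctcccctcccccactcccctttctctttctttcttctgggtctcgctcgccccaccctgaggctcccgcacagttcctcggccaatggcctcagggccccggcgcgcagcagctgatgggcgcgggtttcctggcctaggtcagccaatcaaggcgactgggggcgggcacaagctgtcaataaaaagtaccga
Oat: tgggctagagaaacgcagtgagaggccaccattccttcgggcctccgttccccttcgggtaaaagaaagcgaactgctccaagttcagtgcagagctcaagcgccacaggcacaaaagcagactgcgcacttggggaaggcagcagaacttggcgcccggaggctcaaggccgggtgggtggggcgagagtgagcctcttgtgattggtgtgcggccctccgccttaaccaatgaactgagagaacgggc
Slc1a2: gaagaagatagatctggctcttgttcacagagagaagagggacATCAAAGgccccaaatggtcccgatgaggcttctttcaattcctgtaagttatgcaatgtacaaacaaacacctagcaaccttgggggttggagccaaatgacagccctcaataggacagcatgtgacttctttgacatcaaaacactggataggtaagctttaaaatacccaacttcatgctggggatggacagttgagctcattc
Slc13a3: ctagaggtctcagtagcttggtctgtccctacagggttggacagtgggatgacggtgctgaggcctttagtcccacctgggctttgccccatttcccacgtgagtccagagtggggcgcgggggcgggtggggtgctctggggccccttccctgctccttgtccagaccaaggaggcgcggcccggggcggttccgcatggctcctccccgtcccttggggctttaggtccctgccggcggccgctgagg
Of the 7 windows of the 6 genes (*Rnf43* had a pair of starts), 1 held these letters on either strand, that of *Slc1a2*. Its window ends at a RefSeq start that lies 47779 bases inside the gene as deposited. Among 32851 mouse windows of the same length, 3.2% held them. The shorter CTTTG, which is part of CTTTGAT, stood on either strand in 2 of the 7 windows, those of *Slc1a2* and *Slc13a3*, and in 48.6% of all windows. A match is a description of letters, not a binding site.

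The libraries held 71115112 to 76669799 estimated counts each, and transcripts of the mitochondrial genome took 10.8% to 11.8% of them in COS+APAP libraries, 7.37% to 8.28% in APAP libraries and 12.8% to 16.1% in control libraries. Hepatocyte markers were present in each library (5 of the 6 listed were in the table, none of them at 0 throughout), and their summed level was 44618 and 42273 FPKM in COS+APAP libraries, 58110 and 55617 FPKM in APAP libraries and 47725 and 47207 FPKM in control libraries. FPKM are fragments per kilobase of transcript scaled to depth, so that levels of different genes can be set side by side. *Alb* gave most of the hepatocyte sum, with 39526 and 35830 FPKM in APAP libraries and 28986 and 29091 FPKM in control libraries. *Ttr* went the other way and averaged 53.0% of its control mean in APAP libraries. Of the 5 hepatocyte markers, the test given below called 2 higher and 1 lower in APAP than in control, and 2 were not called. Of all genes tested, 23.3% were called higher and 22.1% lower there. The summed level of the 6 sinusoidal endothelial markers was 15.2 and 13.5 FPKM in COS+APAP, 35.1 and 31.5 FPKM in APAP, and 21.4 and 24.0 FPKM in control libraries. That of the 3 erythroid markers was 190 and 197 FPKM in COS+APAP, 901 and 652 FPKM in APAP, and 182 and 158 FPKM in control libraries. Of the sinusoidal markers, *Lyve1* averaged 695% of its control mean in APAP libraries, and *Stab2*, *Clec4g* and *Kdr* 93.2% to 104%. By the test given below, 3 of the 6 were called higher in APAP than in control, where 23.3% of all genes were. In COS+APAP, 5 of the 6 were called lower than in APAP (11.1% of all genes) and 2 lower than in control (10.3%). The APAP libraries were highest in both the sinusoidal and the erythroid sum. They were also highest for the 5 large vessel markers (1.37 and 1.28 FPKM in COS+APAP, 11.1 and 7.89 FPKM in APAP, 1.90 and 2.35 FPKM in control libraries) and the 5 stellate cell markers (12.0 and 8.84 FPKM in COS+APAP, 26.0 and 25.3 FPKM in APAP, 20.6 and 21.6 FPKM in control libraries). Single genes carried these sums. *Thbd* gave 9.49 and 6.34 FPKM of the large vessel sum in APAP libraries, while *Rspo3* and *Wnt9b* of that list averaged 32.1% and 20% of their control means there, and *Dcn* gave 20.9 and 21.1 FPKM of the stellate sum, while *Lrat* averaged 30.8%. The 4 neutrophil markers, of which *Ly6g* was at 0 in each library, summed to 3.41 and 1.94 FPKM in COS+APAP, 30.2 and 9.62 FPKM in APAP, and 3.37 and 5.45 FPKM in control libraries. The 5 Kupffer cell markers summed to 43.1 to 70.98 FPKM over all libraries, the 4 lymphocyte markers to 0.44 to 1.45 FPKM, the 3 adipose markers to 1.67 to 6.86 FPKM and the 4 exocrine pancreas markers, 3 of them at 0 throughout, to 1.90 to 4.20 FPKM. The part of these other cells in the results below was not tested. Each library also listed 6 to 10 genes at 0 that had over 1000 counts in another library, so a gene is said here only to be listed at 0.

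The zone's leading enzymes fell deeply after APAP and were much higher with COS pretreatment. *Glul* encodes glutamine synthetase, which fixes ammonia into glutamine in a narrow ring of hepatocytes around the central vein (ENSMUSG00000026473, chromosome 1, 153899944 to 153909723, plus strand). *Glul* had 129 and 82.9 FPKM in COS+APAP libraries, 18.0 and 27.8 FPKM in APAP libraries, and 159 and 141 FPKM in control libraries. The APAP libraries were the lowest, both COS+APAP libraries lay below both control libraries, and no groups overlapped. Against control the APAP level fell to 15.3%, or -2.58 ± 0.29 as log2 fold change and SE (adjusted p = 0.00246, edgeR, quasi-likelihood). Adjusted p-values are Benjamini-Hochberg values over all 10051 genes tested, here and below, unless another fit is named. COS+APAP livers held 70.7% of the control mean, 2.23 ± 0.29 above APAP on the log2 scale (adjusted p = 0.00992). Between COS+APAP and control the difference of *Glul* was -0.35 ± 0.28 and did not pass the test (adjusted p = 0.407). In RNA of whole liver, fewer cells of this zone and less RNA per cell cannot be told apart.

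*Oat* encodes ornithine aminotransferase, a mitochondrial enzyme that turns ornithine toward glutamate (ENSMUSG00000030934, chromosome 7, 132557478 to 132576398, minus strand), and it was the most abundant of the 10 genes in control livers. *Oat* had 214 and 194 FPKM in COS+APAP libraries, 16.0 and 22.5 FPKM in APAP libraries, and 302 and 270 FPKM in control libraries. The order of the groups was that of *Glul*, again without overlap. *Oat* fell to 6.73% of the control mean in APAP livers (log2 fold change -3.76 ± 0.20, adjusted p = 0.000878) and stood at 71.4% in COS+APAP livers, which was 3.43 ± 0.19 above APAP (adjusted p = 0.00341). The remaining difference between COS+APAP and control, -0.33 ± 0.18, did not pass (adjusted p = 0.227). *Fgfr2*, a growth factor receptor gene that overlaps *Oat* on the same strand in the annotation, had 472 and 471 estimated counts in COS+APAP, 1304 and 1446 in APAP, and 1694 and 1750 in control libraries. For comparison, *Oat* had 39125 and 37602 in COS+APAP, 3009 and 4463 in APAP, and 59342 and 51390 in control libraries. How the counting shared reads between them was not given.

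The zone's membrane transporters were lowest in APAP libraries too, at lower levels, and a pair of them was nearly undetected there. *Slc1a2*, a sodium-driven glutamate transporter best known from brain (ENSMUSG00000005089, chromosome 2, 102658659 to 102790784, plus strand), had 7.63 and 4.49 FPKM in COS+APAP, 0.00 and 0.05 FPKM in APAP, and 7.91 and 6.74 FPKM in control libraries. *Slc13a3*, a carrier of succinate and other dicarboxylates (ENSMUSG00000018459, chromosome 2, 165405028 to 165473230, minus strand), had 4.10 and 2.46 FPKM in COS+APAP, 0.00 and 0.03 FPKM in APAP, and 3.80 and 3.09 FPKM in control libraries. For both genes, replicate 1 of APAP was listed at 0, and the COS+APAP libraries lay on either side of the control mean. *Rhbg*, an ammonia channel of the Rhesus family (ENSMUSG00000104445, chromosome 3, 88242874 to 88254709, minus strand), had 6.05 and 4.30 FPKM in COS+APAP, 0.18 and 0.38 FPKM in APAP, and 8.13 and 4.36 FPKM in control libraries. The COS+APAP and control ranges of *Rhbg* overlapped, whereas the APAP libraries lay far below both.

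Against control, *Slc1a2* differed in APAP by -8.16 ± 1.21 on the log2 scale (adjusted p = 0.00483), *Slc13a3* by -7.79 ± 0.89 (adjusted p = 0.00252) and *Rhbg* by -4.32 ± 0.50 (adjusted p = 0.00254), and each fell. Folds of the first pair rest on few fragments, when 4 estimated counts are assumed to stand for a fragment. *Slc13a3* had 3 fragments over both APAP libraries, a level 224-fold lower than in control (95% interval 76.2 to 1086). *Slc1a2* had 12.75 fragments, 281-fold lower (161 to 519). These exact intervals cover counting error only. COS+APAP exceeded APAP by 8.04 ± 1.20 for *Slc1a2* (adjusted p = 0.0128), by 7.87 ± 0.89 for *Slc13a3* (adjusted p = 0.00768) and by 4.20 ± 0.49 for *Rhbg* (adjusted p = 0.00795), so all 3 transporters rose. Without replicate 3 of APAP, the fitted folds of *Slc1a2* (-15.83 and 15.71) and *Slc13a3* (-13.41 and 13.49) have a group at 0 and are no bound. COS+APAP held 82.7% of the control mean for *Slc1a2*, 95.2% for *Slc13a3* and 82.9% for *Rhbg*. The differences from control were -0.12 ± 0.85 (adjusted p = 0.932), 0.08 ± 0.59 (adjusted p = 0.934) and -0.12 ± 0.42 (adjusted p = 0.863) in the same order of genes. With errors of this size a small difference in either direction was not detectable.

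**Figure D1:**
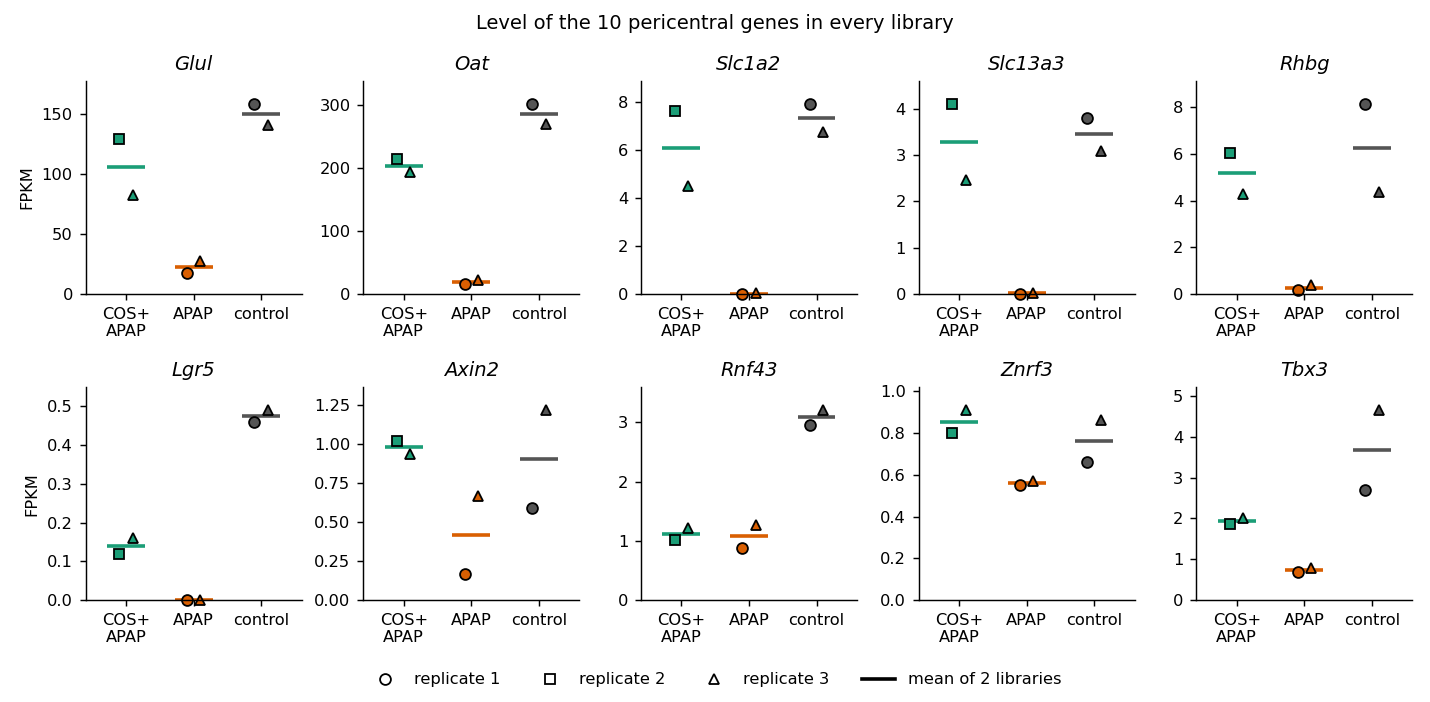
Level of each of the 10 genes in FPKM (linear axis from 0, its own scale in each panel) in COS+APAP, APAP and control libraries; symbols are libraries by replicate number and bars are means of 2 libraries. The enzymes and transporters in the upper row were low in both APAP libraries, *Rnf43* was at 0.89 to 1.27 FPKM in the COS+APAP and APAP libraries, and *Lgr5* was listed at 0 in both APAP libraries.

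Genes that receive and regulate the Wnt signal did not all share a single order of groups. *Lgr5*, a receptor for R-spondins that also marks stem cells of the gut (ENSMUSG00000020140, chromosome 10, 115450311 to 115587780, minus strand), had 0.12 and 0.16 FPKM in COS+APAP, was listed at 0 in both APAP libraries, and had 0.46 and 0.49 FPKM in control libraries. The groups of *Lgr5* did not overlap, and the COS+APAP libraries stood between the others. Taking 3 fragments over a group as the floor, *Lgr5* was at least 60.4-fold lower in APAP than in control and at least 19.9-fold higher in COS+APAP than in APAP. In COS+APAP it was 3.03-fold lower than in control (95% interval 2.24 to 4.11, counting error only). *Lgr5*, *Axin2* and *Znrf3* had a mean under 1 FPKM and did not enter the test, and their adjusted p-values come from edgeR with the filterByExpr filter, which kept 18687 genes. By that fit *Lgr5* was lower in APAP than in control (adjusted p = 0.00147), higher in COS+APAP than in APAP (adjusted p = 0.00676) and lower in COS+APAP than in control (-1.59 ± 0.30, adjusted p = 0.0385). With no filter, edgeR gave 0.0478 for the last comparison. Fits with a library left out did not include genes with a mean under 1 FPKM, so these calls were not checked that way.

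*Rnf43* and *Znrf3* encode related ubiquitin ligases that remove Frizzled receptors from the cell surface and are themselves induced by Wnt signalling. Both were lower in APAP than in control libraries without overlap. Their levels in COS+APAP libraries stood differently among the groups, and whether the genes differ was not tested. *Rnf43* (ENSMUSG00000034177, chromosome 11, 87662722 to 87735539, plus strand) had 1.01 and 1.22 FPKM in COS+APAP, 0.89 and 1.27 FPKM in APAP, and 2.96 and 3.21 FPKM in control libraries. Its COS+APAP and APAP libraries overlapped, and all 4 lay below both control libraries. *Rnf43* fell in APAP against control by 1.38 ± 0.21 on the log2 scale (adjusted p = 0.00542). In COS+APAP against control its log2 fold change was -1.31 ± 0.21 (adjusted p = 0.0142), a call that was lost without replicate 2 of COS+APAP (adjusted p = 0.0669), without replicate 3 of COS+APAP (0.0556) or without replicate 3 of control (0.0672), by edgeR each time. Between COS+APAP and APAP the difference of *Rnf43* was 0.07 ± 0.21 (adjusted p = 0.831), and it turned to -0.14 without replicate 1 of APAP and to -0.08 without replicate 3 of COS+APAP.

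*Znrf3* (ENSMUSG00000041961, chromosome 11, 5276324 to 5444847, minus strand) had 0.80 and 0.91 FPKM in COS+APAP, 0.55 and 0.57 FPKM in APAP, and 0.66 and 0.86 FPKM in control libraries. The APAP libraries were the lowest and did not overlap the others, but no comparison of *Znrf3* passed the filterByExpr fit of edgeR. Its log2 differences there were -0.29 ± 0.20 for APAP against control (adjusted p = 0.326), 0.64 ± 0.20 for COS+APAP against APAP (adjusted p = 0.0905) and 0.35 ± 0.20 for COS+APAP against control (adjusted p = 0.321). *Axin2*, a scaffold of the complex that degrades beta-catenin and a widely used readout of Wnt signalling (ENSMUSG00000000142, chromosome 11, 108920349 to 108950783, plus strand), had 1.02 and 0.94 FPKM in COS+APAP, 0.17 and 0.67 FPKM in APAP, and 0.59 and 1.22 FPKM in control libraries. The APAP and control ranges of *Axin2* overlapped, and in both groups replicate 3 was far above replicate 1. It did not pass in that fit for APAP against control (-0.97 ± 0.63, adjusted p = 0.296), COS+APAP against APAP (1.26 ± 0.63, adjusted p = 0.237) or COS+APAP against control (0.29 ± 0.62, adjusted p = 0.816).

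*Tbx3*, a T-box transcription factor and target of beta-catenin in liver (ENSMUSG00000018604, chromosome 5, 119670669 to 119684724, plus strand), had 1.87 and 2.01 FPKM in COS+APAP, 0.70 and 0.78 FPKM in APAP, and 2.70 and 4.65 FPKM in control libraries. No groups overlapped, and the COS+APAP libraries lay between the others. *Tbx3* fell in APAP by 2.17 ± 0.27 on the log2 scale against control (adjusted p = 0.00322). It was 1.41 ± 0.27 higher in COS+APAP than in APAP (adjusted p = 0.0214), which edgeR no longer called without replicate 1 (0.103) or 3 (0.0729) of APAP or without replicate 2 (0.0761) or 3 (0.0823) of COS+APAP. COS+APAP livers held 52.8% of the control level, a log2 difference of -0.76 ± 0.26 that did not pass (adjusted p = 0.0966) and that did without replicate 1 of control (-1.09, adjusted p = 0.0308). The antisense transcript *Tbx3os1* overlaps *Tbx3* and had 273 and 109 estimated counts in COS+APAP, 162 and 183 in APAP, and 1926 and 1891 in control libraries. The sources used here do not give strandedness, so reads of *Tbx3* and of its antisense partner cannot be told apart where they overlap.

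Set side by side, 7 of the 10 genes had a mean of at least 1 FPKM and were tested, and all 7 fell in APAP livers, where 22.1% of the 10051 genes tested were called lower. The median log2 fold change of the 7 was -3.76, beside -0.0024 over all genes tested. Of the 7, *Slc1a2*, *Slc13a3*, *Rhbg* and *Tbx3* averaged 0.025, 0.015, 0.28 and 0.74 FPKM in APAP libraries. They reached the limit only through the other groups, so their entry was tied to being low in APAP. The members were also chosen with earlier results of these data known. The shares of all genes are therefore given for scale and are no test of the set. COS+APAP against APAP called 6 of the 7 higher, where 11.2% of genes were called higher, with a median of 3.43 beside 0.0057 over all genes. COS+APAP against control called *Rnf43* alone lower, where 10.3% of genes were called lower. With filterByExpr, all 10 genes entered. That fit called 8 lower in APAP than in control (14.7% of 18687 genes), 7 higher in COS+APAP than in APAP (6.96%) and 2, *Lgr5* and *Rnf43*, lower in COS+APAP than in control (5.19%). APAP and control are each part of more than one comparison, so these counts are not independent of each other.

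By levels alone, both APAP libraries lay below both control libraries for 9 of the 10 genes, *Axin2* being the exception, where 44.1% of genes with a mean of at least 1 FPKM did so. Both COS+APAP libraries lay above both APAP libraries for 9 of the 10, all but *Rnf43*, where 33.3% of those genes did so. Both COS+APAP libraries lay below both control libraries for *Glul*, *Oat*, *Lgr5*, *Rnf43* and *Tbx3*, where 42.3% of genes did so, a share near that of the members. *Lgr5*, *Axin2* and *Znrf3* had means under 1 FPKM and are not among the genes of these shares. Of the members that are, all lay lower in the first comparison and all but *Rnf43* higher in the second. In the third, *Glul*, *Oat*, *Rnf43* and *Tbx3* lay lower. No exact permutation test of 2 libraries against 2 can give a two-sided p below 0.33, and the calls rest on a spread shared across genes and groups.

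**Figure D2:**
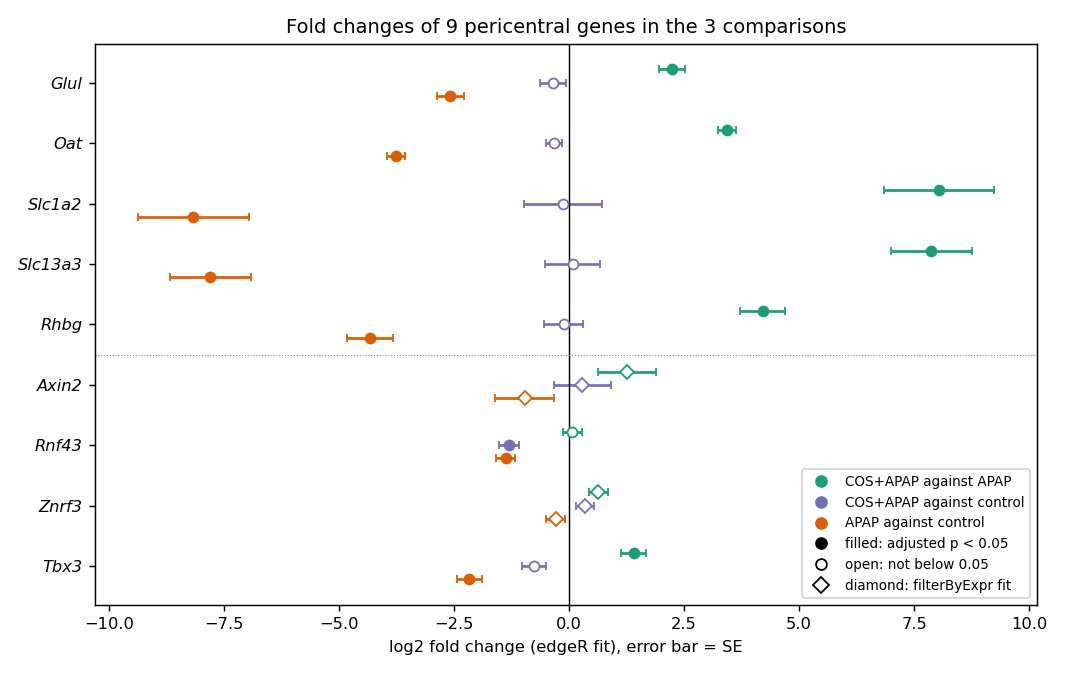
Log2 fold changes (edgeR) of 9 of the 10 genes in COS+APAP against APAP, COS+APAP against control and APAP against control; bars are standard errors, filled symbols have an adjusted p below 0.05, and diamonds come from the filterByExpr fit. *Lgr5* is left out because both APAP libraries were listed at 0, and *Rnf43* had COS+APAP against control (-1.31) next to APAP against control (-1.38).

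The share of the control level held with COS ranged widely over the members. In COS+APAP livers the 5 enzymes and transporters held 70.7% (*Glul*) to 95.2% (*Slc13a3*) of the control mean, and in APAP livers 0.341% (*Slc1a2*) to 15.3% (*Glul*). Among the 5 genes grouped as pathway genes, COS+APAP livers held 29.5% of the control mean for *Lgr5*, 36.1% for *Rnf43*, 52.8% for *Tbx3*, 108% for *Axin2* and 112.5% for *Znrf3*. In APAP livers these shares were 0% for *Lgr5*, 35.0% for *Rnf43*, 20.1% for *Tbx3*, 46.4% for *Axin2* and 73.7% for *Znrf3*. COS+APAP against control called *Rnf43* lower in the main test, and *Lgr5* also in the filterByExpr fit, and neither called an enzyme or transporter. Whether the shares of the groups of genes differ was not tested.

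**Figure D3:**
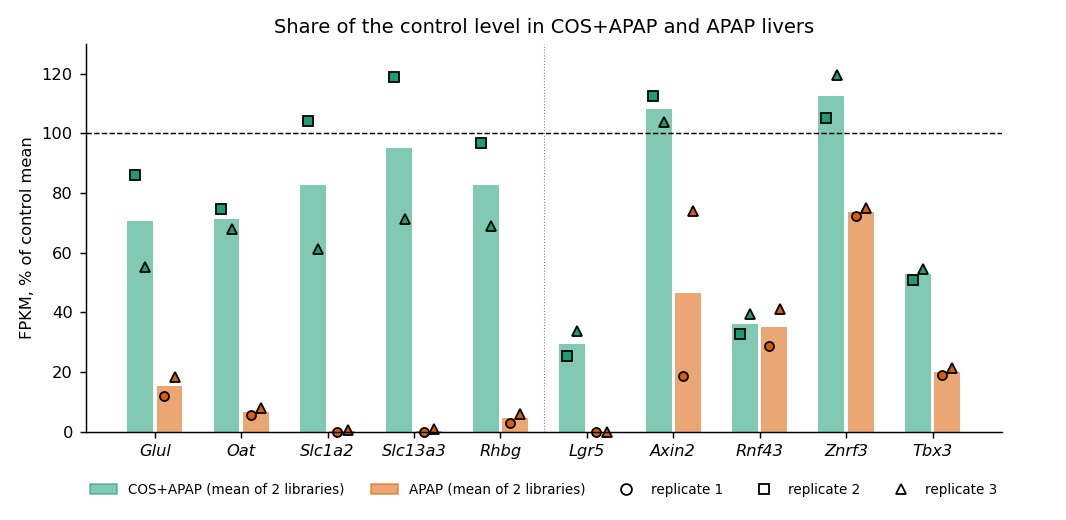
Level in COS+APAP and APAP livers as a percentage of the control mean (dashed line at 100%); bars are means of 2 libraries and symbols are libraries. The 5 enzymes and transporters, left of the dotted line, had COS+APAP means of 70.7% to 95.2% and APAP means of at most 15.3%, while *Rnf43* had 36.1% in COS+APAP and 35.0% in APAP livers.

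The enzymes and transporters also moved together between the libraries of a group. All 5 were lower in replicate 3 than in replicate 2 of COS+APAP, all 5 were higher in replicate 3 than in replicate 1 of APAP, and all 5 were lower in replicate 3 than in replicate 1 of control. Over all genes tested, replicate 3 was the higher of its group for 48.2% of genes in COS+APAP, 57.5% in APAP and 50.5% in control. Of the 5 pathway genes, 4 were higher and 1 lower in replicate 3 of COS+APAP, 4 were higher and *Lgr5* equal at 0 in replicate 3 of APAP, and 5 were higher in replicate 3 of control. In control livers the levels ran from *Oat* and *Glul*, which did not overlap each other or the rest, through *Slc1a2*, *Rhbg*, *Tbx3*, *Slc13a3* and *Rnf43*, in which each neighbour overlapped the next, to *Axin2*, *Znrf3* and *Lgr5*. *Axin2* and *Znrf3* overlapped each other, and *Lgr5* lay below both.

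Around the members, 30 of 60 listed genes of the Wnt pathway had enough signal to be tested. In APAP against control 7 of them rose and 9 fell (23.3% and 22.1% of all genes), with a median log2 fold change of 0.0086. In COS+APAP against APAP 5 rose and 4 fell (11.2% and 11.1%), and in COS+APAP against control 3 rose and 3 fell (10.7% and 10.3%). For 30 genes these counts lie near the shares of all genes. Only some of the pathway calls held in each alternative fit, namely 7 of 16, 2 of 9 and 1 of 6 in the same order of comparisons.

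Ligands were mostly below the limit of testing. *Wnt5b*, a Wnt that usually signals without beta-catenin, had 1.25 and 1.15 FPKM in COS+APAP, 0.70 and 0.47 FPKM in APAP, and 2.99 and 2.98 FPKM in control libraries. It fell in APAP (log2 fold change -2.21 ± 0.27, adjusted p = 0.00296), and its calls for COS+APAP against APAP (1.05, adjusted p = 0.0407) and against control (-1.16, adjusted p = 0.0322) were lost without single libraries, at most to 0.143 and 0.142 without replicates 2 and 3 of COS+APAP. *Porcn*, the acyltransferase that lets cells secrete Wnt proteins, had 3.88 and 4.21 FPKM in COS+APAP, 0.80 and 0.76 FPKM in APAP, and 1.15 and 1.03 FPKM in control libraries. *Porcn* stood above both other groups with COS, by 2.39 ± 0.18 against APAP (adjusted p = 0.00463) and by 2.04 ± 0.18 against control (adjusted p = 0.00372). The R-spondin gene *Rspo3*, named after its values were seen, had 0.45 and 0.35 FPKM in COS+APAP, 0.26 and 0.50 FPKM in APAP, and 1.01 and 1.36 FPKM in control libraries. It was lower in APAP than in control by edgeR's filterByExpr fit (-1.51, adjusted p = 0.0344), and all COS+APAP and APAP libraries lay below both control libraries.

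Receptors went both ways. In APAP against control the co-receptor *Lrp5* rose (log2 fold change 1.07, adjusted p = 0.00551), while the R-spondin receptor *Lgr4* (-1.31, adjusted p = 0.0421) and the Frizzled receptors *Fzd7* (-0.93, adjusted p = 0.0342) and *Fzd8* (-0.73, adjusted p = 0.0271) fell. The last 3 calls were lost by edgeR without a single library, *Lgr4* without replicate 1 of control (0.114), *Fzd7* without replicate 3 of control (0.136) and *Fzd8* without replicate 3 of APAP (0.0998), among others. *Fzd8* was higher in COS+APAP than in APAP (0.89, adjusted p = 0.0282, and 0.105 without replicate 1 of APAP), and *Lrp5* was higher in COS+APAP than in control (0.80, adjusted p = 0.0267, and 0.1 without replicate 3 of COS+APAP).

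Within the relay, *Axin1*, the constitutive partner of *Axin2* in the degradation complex, had 2.93 and 3.31 FPKM in COS+APAP, 5.98 and 5.83 FPKM in APAP, and 3.35 and 2.32 FPKM in control libraries. *Axin1* thus rose in APAP (log2 fold change 1.19, adjusted p = 0.00819) and was lower in COS+APAP than in APAP (-0.90, adjusted p = 0.035, and 0.152 without replicate 2 of COS+APAP). The tankyrases *Tnks* (0.77, adjusted p = 0.00741) and *Tnks2* (0.79, adjusted p = 0.00586), which mark axins for degradation, rose in APAP against control (the call of *Tnks* was lost with limma), and *Dvl1*, which carries the signal from Frizzled, fell (-0.65, adjusted p = 0.013, and 0.0629 without replicate 3 of APAP). With COS, *Tnks2* was lower than in APAP (-0.78, adjusted p = 0.0151, and 0.0745 without replicate 2 of COS+APAP). Against control, COS+APAP had higher *Tnks* (1.00, adjusted p = 0.00899) and lower *Dvl1* (-0.52, adjusted p = 0.0463). The call of *Dvl1* against control was lost in 8 of 15 alternative fits.

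Among nuclear factors, *Ctnnb1*, the gene of beta-catenin, had 13.2 and 13.9 FPKM in COS+APAP, 19.3 and 21.2 FPKM in APAP, and 16.5 and 15.9 FPKM in control libraries, so that its transcript was highest where most of the 10 members were lowest. The log2 difference of *Ctnnb1* was 0.46 for APAP against control (adjusted p = 0.0167) and -0.56 for COS+APAP against APAP (adjusted p = 0.0203). The first call was lost in 8 of 16 alternative fits, among them library totals alone, limma and leaving out any APAP or control library. The second was lost in 4 of 15, namely on leaving out any APAP or COS+APAP library. *Bcl9l*, a coactivator of beta-catenin, had 6.40 and 7.22 FPKM in COS+APAP, 1.49 and 1.71 FPKM in APAP, and 6.67 and 4.50 FPKM in control libraries. Its APAP libraries lay below all others, and its COS+APAP and control ranges overlapped. The log2 fold changes of *Bcl9l* were -1.67 ± 0.22 for APAP against control (adjusted p = 0.00362) and 2.11 ± 0.22 for COS+APAP against APAP (adjusted p = 0.00713). *Tcf7*, a TCF factor, rose in APAP against control (1.13, adjusted p = 0.00762) and was lower in COS+APAP than in APAP (-0.84, adjusted p = 0.0351, and 0.144 without replicate 3 of COS+APAP).

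**Figure D4:**
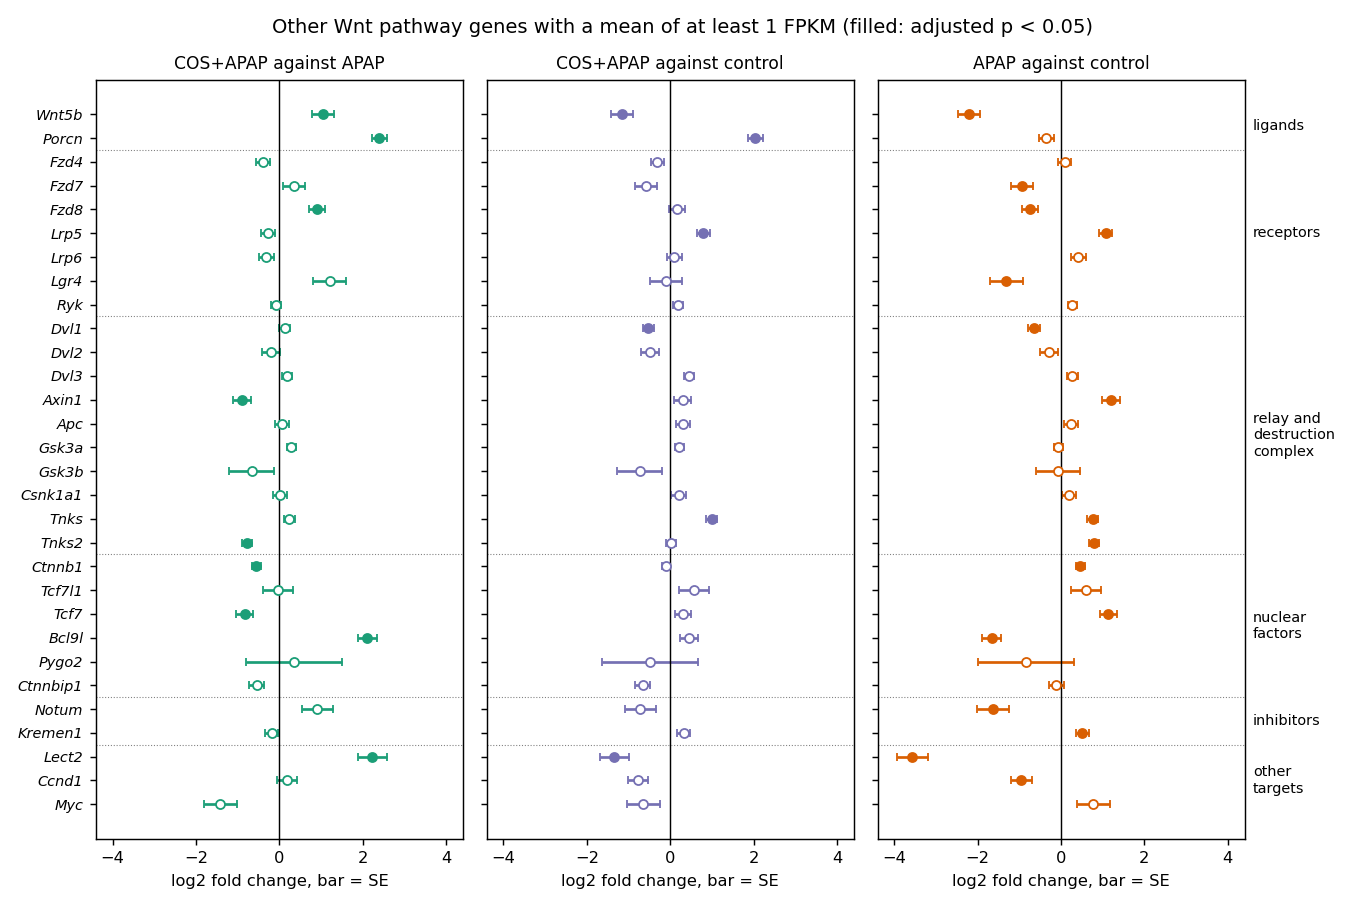
Log2 fold changes (edgeR, bars are standard errors) of the 30 Wnt pathway genes other than the members that had a mean of at least 1 FPKM, by role, for COS+APAP against APAP, COS+APAP against control and APAP against control; filled points have an adjusted p below 0.05. Calls lay on both sides of 0, with *Lect2*, *Wnt5b* and *Bcl9l* furthest below 0 in APAP against control and *Porcn*, *Lect2* and *Bcl9l* furthest above 0 in COS+APAP against APAP.

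Among inhibitors and other targets, *Notum*, a secreted enzyme that inactivates Wnt proteins and is itself a target in pericentral hepatocytes, had 9.13 and 8.65 FPKM in COS+APAP, 2.86 and 6.78 FPKM in APAP, and 15.3 and 17.3 FPKM in control libraries. *Notum* fell in APAP (log2 fold change -1.63, adjusted p = 0.0187, and 0.0685 without replicate 3 of control), and its groups did not overlap. The co-receptor for Dickkopf proteins, *Kremen1*, rose (0.51, adjusted p = 0.0415), a call lost in 12 of 16 alternative fits. *Lect2*, a secreted hepatocyte protein and target of beta-catenin, had 66.2 and 45.6 FPKM in COS+APAP, 8.11 and 16.2 FPKM in APAP, and 163 and 152 FPKM in control libraries. *Lect2* fell in APAP (-3.57 ± 0.37, adjusted p = 0.00207) and was higher in COS+APAP than in APAP (2.23 ± 0.35, adjusted p = 0.0143, and 0.0588 without replicate 2 of COS+APAP). It was lower in COS+APAP than in control (-1.34, adjusted p = 0.0445, and 0.183 without replicate 3 of COS+APAP). The cell cycle gene *Ccnd1* fell in APAP (-0.96, adjusted p = 0.0264, and 0.108 without replicate 3 of control).

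Below the limit of testing are 3 further targets, named after their values were seen. The transcription factor gene *Sp5* had 0.34 and 0.24 FPKM in COS+APAP, was listed at 0 in both APAP libraries, and had 1.28 and 1.38 FPKM in control libraries. *Sp5* was at least 34.7-fold lower in APAP than in control, at least 8.49-fold higher in COS+APAP than in APAP, and 4.08-fold lower in COS+APAP than in control (95% interval 2.65 to 6.74, counting error only). *Tnfrsf19*, a receptor of the TNF family, had 0.40 and 0.52 FPKM in COS+APAP, 0.04 and 0.07 FPKM in APAP, and 0.87 and 1.05 FPKM in control libraries. *Nkd1*, a feedback inhibitor that binds Dishevelled, had 0.31 and 0.40 FPKM in COS+APAP, 0.92 and 0.58 FPKM in APAP, and 1.62 and 1.01 FPKM in control libraries. For *Sp5* and *Tnfrsf19* the APAP libraries were the lowest, and for *Nkd1* the COS+APAP libraries were. By edgeR's filterByExpr fit, COS+APAP was lower than control for *Sp5* (adjusted p = 0.043) and *Nkd1* (-1.71, adjusted p = 0.0433), calls that were lost with no filter (0.0519 and 0.0533), and APAP was lower than control for *Tnfrsf19* (-3.91, adjusted p = 0.00258).

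Other pericentral genes fell with the members. All 6 listed fell in APAP against control (median log2 fold change -1.93, beside 22.1% of genes called lower), led by *Lhpp*, a phosphatase (-3.88, adjusted p = 0.00113), *Slc22a3*, an organic cation transporter (-3.26, adjusted p = 0.00688), and *Rgn*, a calcium-binding lactonase (-2.28, adjusted p = 0.00134). *Gulo*, the last enzyme of vitamin C synthesis (-1.57), and the retinal dehydrogenase *Aldh1a1* (-1.55) also fell, as did the tight junction gene *Cldn2* (-0.94, adjusted p = 0.0173), which was no longer called without replicate 1 of control (0.066). In COS+APAP against APAP 5 of the 6 rose, where 11.2% of genes were called higher. *Slc22a3* rose by 3.71 (adjusted p = 0.0129, a call lost without either COS+APAP library) and *Lhpp* by 3.59 (adjusted p = 0.00449). *Rgn* rose by 1.5 (adjusted p = 0.0079), *Gulo* by 1.46 (adjusted p = 0.0223, and 0.0873 without replicate 2 of COS+APAP) and *Aldh1a1* by 0.68 (adjusted p = 0.0192, and 0.103 without replicate 1 of APAP). COS+APAP was lower than control for *Aldh1a1* (-0.87, adjusted p = 0.0103, and 0.0625 without replicate 3 of COS+APAP) and *Rgn* (-0.78, adjusted p = 0.0315, and 0.101 without replicate 1 of control).

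The P450 genes of the same zone, which include those that activate APAP, are set beside them only for comparison. All 8 fell in APAP against control (median log2 fold change -1.68, beside 22.1% of genes called lower), although *Cyp2e1* (-0.87, adjusted p = 0.0451) was no longer called without either APAP library, either COS+APAP library or replicate 1 of control (up to 0.195 without replicate 1 of APAP), and *Cyp3a11* (-1.10, adjusted p = 0.031) without replicate 1 of APAP, either COS+APAP library or either control library (up to 0.0876 without replicate 1 of control). With filterByExpr, 7 of the 8 were called lower, beside 14.7% of 18687 genes. Of the same genes, 5 of 8 were higher in COS+APAP than in APAP (median 0.95, beside 11.2% of genes called higher), with *Cyp2a5* furthest in both comparisons (-3.82 and 4.61). The next furthest were *Cyp1a2* (-2.85), *Cyp2c37* (-2.72), *Cyp2c29* (-1.75) and *Cyp2c54* (-1.61) for APAP against control. For COS+APAP against APAP they were *Cyp2c37* (1.81), *Cyp1a2* (1.75), *Cyp2e1* (1.35) and *Cyp2c54* (0.54), of which *Cyp1a2* and *Cyp2a5* kept their calls without each single library and the others did not, up to adjusted p = 0.166 by edgeR for *Cyp2c54* without replicate 1 of APAP. In COS+APAP against control 5 of 8 were lower (median -0.99, beside 10.3% of genes called lower), namely *Cyp2c29* (-1.85), *Cyp3a11* (-1.54), *Cyp1a2* (-1.10), *Cyp2c54* (-1.07) and *Cyp2c50* (-0.85), whereas none of the 5 enzymes and transporters was called there. Of these 5 calls, that of *Cyp2c54* held without each single library and the others were lost, each without at least 1 of the COS+APAP libraries, up to adjusted p = 0.132 for *Cyp2c50* by edgeR without replicate 3 of COS+APAP. Whether the P450 genes and the members differ as groups was not tested. Genes of these P450 families can share reads with near-identical copies.

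Of 10 genes of the opposite, periportal zone, 4 rose in APAP livers and 6 did not pass (median log2 fold change 0.57, beside 23.3% of genes called higher). Those that rose were *Cdh1*, the gene of E-cadherin (2.03), *Hsd17b13* (1.86), *Cps1*, the first enzyme of the urea cycle (1.11), and *Cyp2f2* (1.05), with adjusted p between 0.00144 and 0.00929. *Hal*, the first enzyme of histidine breakdown, named after its values were seen, had 42.8 and 57.0 FPKM in COS+APAP, 36.4 and 36.2 FPKM in APAP, and 52.1 and 51.7 FPKM in control libraries (APAP against control -0.38, adjusted p = 0.108). In COS+APAP against APAP, *Cdh1* (-2.81, adjusted p = 0.00341), *Hsd17b13* (-1.49, adjusted p = 0.00635) and *Cyp2f2* (-1.16, adjusted p = 0.0108, and 0.054 without replicate 3 of COS+APAP) were lower. The amino acid enzymes *Sds* (1.27, adjusted p = 0.0246) and *Arg1* (0.85, adjusted p = 0.0413) were higher there. These calls were lost in 4 and 9 of 15 alternative fits. Compared with control, COS+APAP had higher *Sds* (2.01, adjusted p = 0.00877), *Arg1* (1.07), *Cps1* (0.91) and *Ass1* (0.67) and lower *Cdh1* (-0.78), and of these calls that of *Sds* held without each single library. *Cdh1* is also made by cholangiocytes, whose 5 markers summed to 20.2 and 21 FPKM in COS+APAP, 51.0 and 35.4 FPKM in APAP, and 28.5 and 34.4 FPKM in control libraries, and their part in it was not tested.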

How the data were processed

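Liver RNA with a poly(A) tail was sequenced as read pairs, per the labels' protocols. Per the submitters' processing notes, HISAT2 2.0 and StringTie 1.3.0 were used. A genome build was not given in the sources used here. Among deposited identifiers, 55141 were in mouse GENCODE release 21 (GRCm38), 94.2% of them at identical coordinates, as were all 10 members, and coordinates are printed as deposited.

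Per the file headers, the authors deposited an estimated count for each gene in each library. These were whole numbers and entered the tests unchanged. The authors also deposited FPKM values for the same genes, per the file headers, used here for levels. A further 6 columns matched no sample and were not used.

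The 10051 genes that averaged at least 1 FPKM were tested with edgeR 4.0.16 (R 4.3.3): quasi-likelihood F test, TMM scaling, 1 model of 3 groups over 6 libraries (3 residual degrees of freedom), two-sided, Benjamini-Hochberg adjustment over all genes tested, called below 0.05. SE is the log2 fold change over the root of F. The test code was also run on simulated counts with the same spread for every gene, which does not measure its errors on these data. In each library a count of 4 was more frequent than 3 or 5, so a fragment was taken as 4 estimated counts. The floor for a group listed at 0 was 3 fragments over the group. The intervals and floors rest on this assumption, and larger counts were not all multiples of 4. Intervals are exact binomial at 95% and cover counting error only. The alternatives were RLE scaling, library totals alone, DESeq2 1.42.0, limma 3.58.1 on log2(FPKM + 1) and on log2(FPKM + 0.1), no filter, filterByExpr, counts divided by 4, a fit of only the 2 groups compared, a replicate block and leaving out each library. A left-out library named beside a lost call is an example, and other alternatives could lose that call too.

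The 10 members and the gene lists (Wnt pathway by role, other pericentral, pericentral P450, periportal, ammonia and glutamate handling, cell type markers) were chosen with earlier results of these data known. The text names all members, the called genes of each list other than the cell type markers (up to 5 per comparison with the largest change) and the 5 tested genes with the nearest profile. Genes outside this rule are named as such.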

Additional observations from a re-analysis of the deposited data

How the results depend on the processing

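All 7 tested members stayed lower in APAP than in control under each of the 16 alternatives, and the 5 enzymes and transporters stayed higher in COS+APAP than in APAP under each of 15. With COS+APAP against control, DESeq2, no filter and filterByExpr each called 2 members in place of 1. DESeq2 called 3552 genes in place of 2249 for COS+APAP against APAP and 3421 in place of 2109 for COS+APAP against control. Without a filter, 12 listed genes in place of 19 were called for COS+APAP against control. Leaving out 1 library at a time gave 7 to 7 members, 28 to 35 listed genes and 3033 to 4117 of all genes for APAP against control (7, 38 and 4561 with all libraries), 5 to 6 members, 11 to 26 listed genes and 612 to 1941 of all genes for COS+APAP against APAP (6, 26 and 2249), and 0 to 2 members, 7 to 16 listed genes and 590 to 1716 of all genes for COS+APAP against control (1, 19 and 2109). A group left with 1 library was assumed to vary like the others. The cause of these changes was not tested.

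Differences near 0 changed sign. *Rnf43* in COS+APAP against APAP was -0.14 without APAP replicate 1 and -0.082 without COS+APAP replicate 3 (up to 0.32 without APAP replicate 3). In COS+APAP against control, *Slc13a3* turned to -0.091 with library totals alone, -0.077 and -0.11 with limma (pseudocounts 1 and 0.1), -0.32 without COS+APAP replicate 2 and -0.069 without control replicate 3 (up to 0.40 without COS+APAP replicate 3), *Slc1a2* to 0.20 without COS+APAP replicate 3 and 0.0094 without control replicate 1 (lowest -0.54, without COS+APAP replicate 2), and *Rhbg* to 0.097 and 0.41 without the same libraries (lowest -0.51, without control replicate 3). DESeq2 called *Tbx3* lower in COS+APAP than in control (adjusted p = 0.0352), and limma on log2(FPKM + 1) lost its call against APAP (adjusted p = 0.0581). Library totals alone moved the median of all genes to -0.15 for APAP and -0.16 for COS+APAP against control. With a replicate block, APAP against control kept a count of 7 members, with 31 listed genes and 3334 of all genes. Same-numbered APAP and control libraries did not deviate together (r = 0.0172 across genes). A single value over all genes cannot show whether equal numbers mark anything shared, which the labels do not say.

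With 2 libraries a group, small differences are not detectable, and genes under 1 FPKM rest on few fragments.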

Other observations

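Ammonia and glutamate handling is the work that *Glul*, *Oat*, *Rhbg* and *Slc1a2* do in pericentral hepatocytes, and 10 of 17 other listed genes of this work were tested. In APAP against control 2 rose and 3 fell (23.3% and 22.1% of all genes did), with a median log2 fold change of -0.22. *Prodh*, proline dehydrogenase, whose product joins that of *Oat*, had 21.4 and 24.0 FPKM in COS+APAP, 4.72 and 8.39 FPKM in APAP, and 21.5 and 21.3 FPKM in control libraries. *Prodh* fell in APAP (-1.58, adjusted p = 0.00662, edgeR with Benjamini-Hochberg adjustment as in the report) and rose in COS+APAP against APAP (1.82, adjusted p = 0.0119, and 0.0502 without COS+APAP replicate 3). The glutamine carrier *Slc1a5* (-1.01, adjusted p = 0.0246) and glutamate dehydrogenase *Glud1* (-0.36, adjusted p = 0.0482) fell in APAP. These calls were lost in 4 and 10 of 16 alternatives. *Got1*, the cytosolic aspartate aminotransferase, rose in APAP (1.19, adjusted p = 0.0467) and in COS+APAP against control (2.07, adjusted p = 0.0198). The calls of *Got1* were lost in 9 of 16 and 2 of 15 alternatives. The neutral amino acid carrier *Slc1a4* was higher in COS+APAP than in APAP (3.89, adjusted p = 0.0365, and 0.168 without APAP replicate 1), with 2.66 and 4.22 FPKM in COS+APAP, 0.17 and 0.30 FPKM in APAP, and 0.97 and 0.14 FPKM in control libraries. *Cps1*, listed here and among periportal genes, also rose in APAP (1.11) and in COS+APAP against control (0.91).

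Further carriers of glutamate and ammonia on the list were near 0 in each group. *Slc1a1* and *Slc1a3* had at most 0.02 FPKM in each library, and *Rhcg* was listed at 0.00 FPKM in all 6.

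Among the 10051 genes tested, the 5 whose profile over the 6 libraries was nearest to the mean profile of the tested members (root mean square distance of z-scored log2(FPKM + 1)) were *Usp2* (0.051), *Ppp1r16a* (0.0623), *Nans* (0.0718), *Bivm* (0.0732) and *Tfg* (0.0753). Of the members, *Glul* (0.130) and *Oat* (0.150) lay nearest to their mean and *Rnf43* furthest (0.682). *Usp2*, a deubiquitinase, had 3.68 and 3.28 FPKM in COS+APAP, 0.20 and 0.58 FPKM in APAP, and 5.82 and 5.67 FPKM in control libraries. The profile rests on 6 libraries in 3 groups, so many genes ordered alike will lie near it.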
